A study of Mus musculus with 2 samples.

Results

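The cluster of miR-191 and miR-425 is a pair of microRNA genes that lie side by side on mouse chromosome 9. Its 2 members were followed through microRNA sequencing of embryonic mouse heart, out of 1973 microRNA gene models counted in each library. They were taken by gene identifier: Mir425 (ENSMUSG00000065579.1) from the reads on its own strand, and Mir191 from the reads on the strand opposite Gm24083 (ENSMUSG00000092915.1), because Mir191 itself has no row of its own among the counted models. The strand column of each member was selected on the own-strand and opposite-strand counts of these same libraries, so the levels and strand shares are given as descriptions without a test. The study has 1 group, hearts of B6NCrl mouse embryos at embryonic day 11.5, with male and female embryos pooled. Replicate 1 pooled the hearts of 109 embryos, the sources used here do not give the number behind replicate 2, and the labels name separate tissue samples without saying whether litters differed. All embryos were healthy, and no genotype or treatment was compared. RNA of fewer than 30 nucleotides was sequenced from whole hearts, so fewer cells of a type and less RNA per cell cannot be told apart.

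A microRNA is cut out of a hairpin in a longer primary transcript, and 1 of the hairpin's arms, or both, is loaded into an Argonaute protein. The loaded arm pairs with messenger RNAs mainly through its seed, the bases near its 5′ end, and lowers their translation and stability. miR-191 and miR-425 are processed from a shared primary transcript and are found in many tissues, for which miR-191 is in wide use as a reference in quantitative PCR. In human, miR-425-5p has been shown to act on the messenger RNA of NPPA, which encodes atrial natriuretic peptide, a hormone of the heart. The gene usually named as host, Dalrd3, encodes a protein that in human is needed for methylation of arginine transfer RNAs.

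The mature arms are shown because seed and sequence decide both which reads can be counted here and which microRNAs are relatives. They are RefSeq sequences on GRCm38.p6, the build also called mm10, written 5′ to 3′ with the seed, bases 2 to 8, in capitals.
mmu-miR-191-5p: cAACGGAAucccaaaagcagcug
mmu-miR-191-3p: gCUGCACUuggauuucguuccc
mmu-miR-425-5p: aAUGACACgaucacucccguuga
mmu-miR-425-3p: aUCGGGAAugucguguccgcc
mmu-miR-489-3p: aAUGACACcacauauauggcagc
The 4 arms of the cluster have 4 different seeds, so the neighbours are not members of 1 seed family. Among 1738 mature mouse sequences, the seeds of miR-191-5p, miR-191-3p and miR-425-3p were shared with 0 arms of other genes. The seed of miR-425-5p was shared with 1, miR-489-3p, whose first 8 bases are the same; over the whole length 12 of 23 positions matched.

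The hairpins are shown with their mature arms in capitals. Both are transcribed from the plus strand, and the M21 and RefSeq hairpin sequences were identical for both genes.
Mir191 hairpin: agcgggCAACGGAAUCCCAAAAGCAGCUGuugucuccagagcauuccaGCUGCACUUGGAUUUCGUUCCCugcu
Mir425 hairpin: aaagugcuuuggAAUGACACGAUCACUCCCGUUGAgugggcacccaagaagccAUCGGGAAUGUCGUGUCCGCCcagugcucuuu
The Mir191 hairpin is 74 bases long (chr9:108568319-108568392) and the Mir425 hairpin 85 bases (chr9:108568777-108568861), with 384 bases between them. No word of 18 bases from any of the 4 arms occurred in the hairpin of another gene, with 1004 other hairpins searched for each arm. Among 141767 M21 transcripts the arms were found in their own hairpins and in 1 longer transcript, 4833445I07Rik-201. The arms of Mir191 were also found as their reverse complement in Gm24083. The counts are per hairpin, so the 5p and 3p arms of a gene could not be separated.

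The label of the cluster places it in Dalrd3, and the annotations differ on this point. In RefSeq the span of Dalrd3 (chr9:108567484-108572773) contains both hairpins. In GENCODE M21 Dalrd3 starts 1024 bases after the end of Mir425 (chr9:108569886-108572774) and overlaps neither hairpin. There, both hairpins lie in the long non-coding RNA gene 4833445I07Rik (chr9:108567533-108569174, plus strand). Of its 2 transcripts, the longer is a single exon that contains both hairpins. The shorter has an intron (chr9:108568181-108568483) that contains Mir191, and it ends 2 bases before Mir425. Gm24083 is a model of 120 bases on the minus strand (chr9:108568295-108568414) that covers all of the Mir191 hairpin and reaches 24 bases beyond it on one side and 22 on the other.

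**Figure D1:**
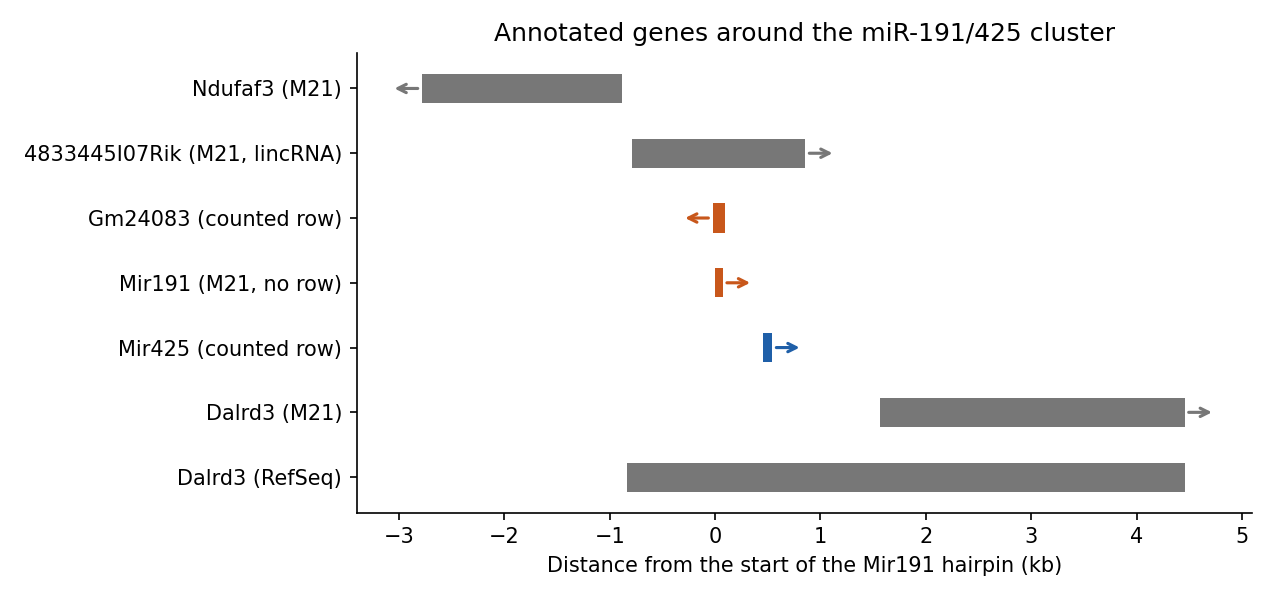
Genes annotated around the cluster, with distance from the start of the Mir191 hairpin in kilobases on the horizontal axis and 1 line per gene model. Bars run from gene start to gene end, and arrows show the strand where the annotation used gives it. The 2 hairpins lie 384 bases apart inside 4833445I07Rik; Dalrd3 contains them in RefSeq and starts after them in M21.

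Replicate 1 was 9.15-fold deeper: its own-strand counts over all microRNA genes summed to 18467499, and those of replicate 2 to 2017294. Levels are given as CPM, counts scaled to a total of 1000000 own-strand counts per library. They were not divided by gene length, since a read of this size spans a whole mature arm. Intervals are exact 95% binomial (Clopper-Pearson) intervals and cover counting error only, since several reads can stem from 1 molecule by amplification. The heart markers set out for a check of the tissue were present. The cardiac muscle microRNAs Mir208a, Mir208b and Mir499 summed to 58391 CPM in replicate 1 and 63138 CPM in replicate 2, while none of the 5 counted neuronal loci of Mir124a and Mir9 reached 1 CPM in both libraries, and Mir124a-1, Mir124a-3 and Mir9-2 had 0 counts in both. Mir124a and Mir9 each have several loci, and reads that map to more than 1 place stand on no gene, so their low counts do not show absence. The listed genes of epithelium, liver, and endocrine pancreas and gut were all detected, as given below.

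Mir191 had 33771 counts in replicate 1, or 1829 CPM with an interval of 1809 to 1848 CPM. In replicate 2 it had 4053 counts, or 2009 CPM (1948 to 2072 CPM). The mean was 1919 ± 128 CPM (SD, n = 2). Mir425 had 25474 counts in replicate 1, or 1379 CPM (1363 to 1396 CPM), and 2584 counts in replicate 2, or 1281 CPM (1232 to 1331 CPM). Its mean was 1330 ± 69.6 CPM (SD, n = 2). Mir191 was above Mir425 in both libraries, and the ranges of the 2 genes did not overlap. On this scale replicate 2 was the higher library for Mir191 and the lower one for Mir425. Together the 2 genes made up 0.321% of the own-strand total of replicate 1 and 0.329% of that of replicate 2. Their sum varied less between the libraries, with a coefficient of variation of 1.78%, than either gene did, at 6.65% for Mir191 and 5.23% for Mir425. Both of these statements depend on the scaling. Scaled to all mapped reads, Mir191 had 949.8 and 1147 CPM and Mir425 had 716 and 731 CPM in replicates 1 and 2, so replicate 2 was then the higher one for both genes. The coefficient of variation was then 13.3% for Mir191, 1.43% for Mir425 and 8.44% for their sum.

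**Figure D2:**
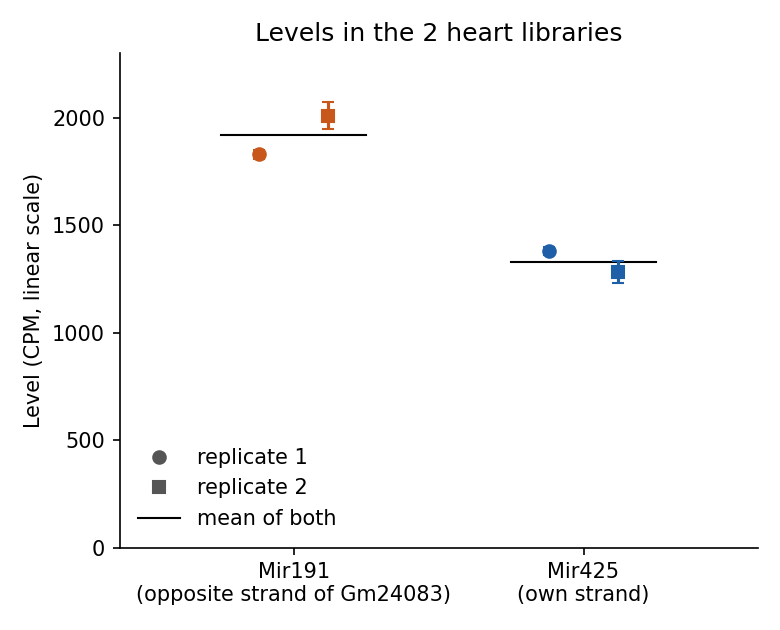
Level in CPM, on a linear scale from 0, for Mir191 and Mir425 in each heart library; bars are exact 95% counting intervals and horizontal lines are means of the 2 libraries. Mir191 stands at 1829 and 2009 CPM and Mir425 at 1379 and 1281 CPM in replicates 1 and 2.

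The strand of the reads was all one way at both loci. At Gm24083, 0 of 33771 reads in replicate 1 and 0 of 4053 in replicate 2 lay on the strand of that model. A count of 0, taken as up to 3 counts, allows up to 0.00888% and 0.0740% of the locus reads. At Mir425, 0 reads lay on the opposite strand in either library, which allows up to 0.0118% in replicate 1 and 0.116% in replicate 2. All reads counted at Gm24083 thus lay on the strand of Mir191, and the flanks of the model outside the Mir191 hairpin are as short as a single read. The same one-sided pattern was general. Of 119 gene models with at least 1000 counts over both strands in both libraries, 110 had more reads on their own strand. Of these 110, 88 had 0 on the other, and the largest opposite-strand share, as a mean of the 2 libraries, was 0.814%. The other 9 had nearly all of their reads on the opposite strand, with the lowest share, 99.6%, at Mir299b in replicate 1.

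Gm24083 was the seventh by level among these 9 models. Each of them lies opposite a microRNA gene in M21 that has no row of its own. Ordered by opposite-strand level they were Gm25301 (opposite Mir378a) at 27418 CPM, Gm24321 (Mir409) at 4460 CPM, Gm25927 (Mirlet7e) at 4444 CPM, Gm25252 (Mir376a) at 2944 CPM, Mir299b (Mir299a) at 2266 CPM, Mir142b (Mir142) at 2245 CPM, Gm24083 at 1919 CPM, Gm25750 (Mir380) at 1055 CPM and Mir497b (Mir497) at 654 CPM. Mir191 held 3.80% of all opposite-strand gene counts in replicate 1 and 4.29% in replicate 2. Its ratio of replicate 1 to replicate 2, 0.910, was below those of the other 8, which ran from 0.937 to 1.22.

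By mean level Mir191 was in place 69 and Mir425 in place 78 of the 1973 models, with the other models read on their own strand. The places in replicates 1 and 2 were 69 and 68 for Mir191, and 76 and 80 for Mir425. When every model was read on its more abundant strand, they moved to 75 and 84, since 6 other opposite-strand loci then stood above them. At a minimum of 1 CPM in each library, 420 models were detected, with a median of 82.0 CPM. Mir191 was above 83.6% of them and Mir425 above 81.4%. Both stood far below the most abundant one, Mir335 at 111844 CPM.

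**Figure D3:**
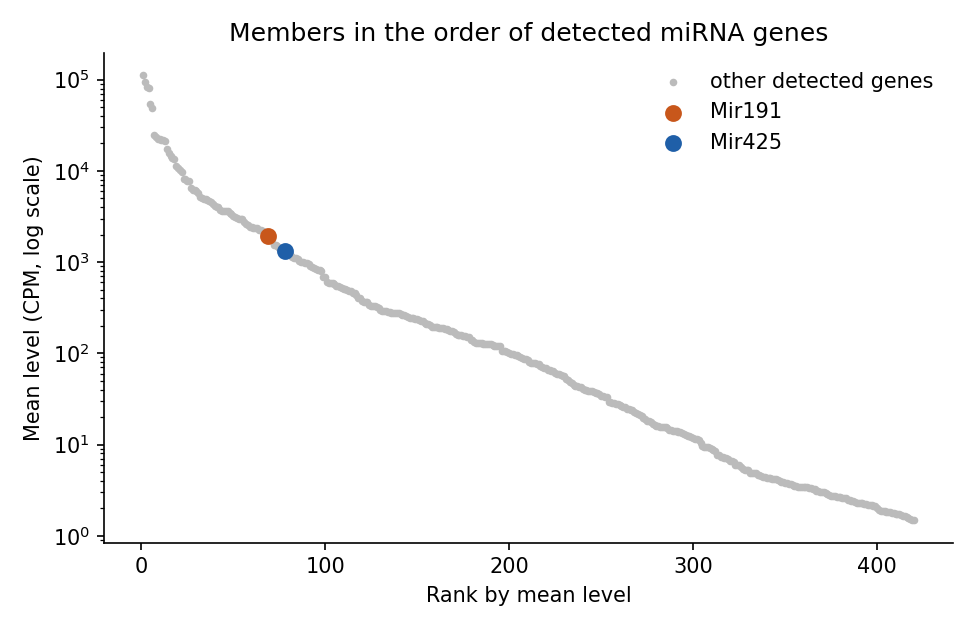
Mean level of the 420 detected microRNA genes (CPM, log scale) against rank, with Mir191 and Mir425 in colour and all other genes in grey. The members stand in places 69 and 78, at 1919 and 1330 CPM.

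The genes next in order to Mir191 were Mir541 at 2204 CPM, Mir342 at 2121 CPM and Mir16-1 at 2005 CPM above it, and Mir15b at 1901 CPM, Mir499 at 1795 CPM and Mir872 at 1551 CPM below. Mir16-1 and Mir15b belong to the miR-15/16 family, known as a brake on the cell cycle, and Mir499 is encoded in the myosin gene Myh7b. A gap was counted as beyond the spread where both libraries went the same way, both counting intervals of the ratio excluded equality and the mean log2 ratio exceeded its SD. By that measure Mir191 was below Mir541 and above Mir872. Its order among Mir342, Mir16-1, Mir15b and Mir499 was not settled by these 2 libraries.

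Around Mir425 the order was Mir34c at 1431 CPM, Mir98 at 1421 CPM and Mir27b at 1417 CPM above, and Mir433 at 1298 CPM, Mir145a at 1238 CPM and Mir337 at 1225 CPM below. Only the gap to Mir337 was beyond the spread among these 6. Mir16-1 is counted with uncertainty, since its mature sequence occurs at more than 1 locus.

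Likeness over the 2 libraries was measured as the Euclidean distance on log2(CPM + 1). The 5 genes closest to Mir191 were Mir15b, at a distance of 0.020, then Mir499 at 0.15, Mir16-1 at 0.22, Mir342 at 0.24 and Mir541 at 0.30. Mir15b had 1809 CPM in replicate 1 and 1993 CPM in replicate 2, close to the 1829 and 2009 CPM of Mir191. The 5 genes closest to Mir425 were Mir98 at 0.15, Mir433 at 0.15, Mir337 at 0.18, Mir27b at 0.21 and Mir34c at 0.21. Mir191 and Mir425 were each only the 22nd closest to the other, at a distance of 0.77. With 2 libraries this measure is set almost wholly by level.

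The ratio of the 2 members was then taken within each library, where depth and scaling drop out. Mir191 had 1.33 times the counts of Mir425 in replicate 1 (interval 1.30 to 1.35) and 1.57 times in replicate 2 (1.49 to 1.65). On the log2 scale the ratio of Mir191 to Mir425 was 0.41 in replicate 1 and 0.65 in replicate 2, with a mean of 0.53 ± 0.17 (SD, n = 2). Mir191 was thus the higher in both libraries by more than their spread. Of the reads of the pair, 57.0% (56.6 to 57.4%) came from Mir191 in replicate 1 and 61.1% (59.9 to 62.2%) in replicate 2. The ratio itself differed between the libraries beyond counting error, by -0.24 on the log2 scale in replicate 1 relative to replicate 2, with an exact conditional 95% interval of -0.32 to -0.17. With 1 library on each side, this compares 2 libraries and carries no p-value. A ratio of counts is not a ratio of molecules, since hairpins can differ in how readily their products are turned into reads.

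This ratio was set beside those of the other same-strand pairs of microRNA genes with at most 10 kb between their hairpins, both at 1 CPM or more in both libraries. Of 385 other pairs, 43 (11.2%) were closer in level than Mir191 and Mir425, and the median size of the log2 ratio was 2.81, against 0.53 for the cluster. The ratio changed by 0.24 (log2) between the libraries for the cluster, against a median of 0.15 for the other pairs, of which 26.8% changed by more. Many of these pairs share genes or have few counts. Most lie in 1 region of chromosome 12, from Mir770 to Mir3072, so the figures describe that region more than clustered microRNA genes in general. Genes with several loci also lose reads that map to more than 1 place. With single-locus symbols only, 41 of 336 other pairs (12.2%) were closer in level, and the median size of the log2 ratio was 2.59. Among 40 other pairs with both genes at 1000 CPM or more, a limit chosen after the data had been seen, the median change was 0.092 and 3 pairs (7.5%) changed by more than the cluster. These were Mir351 with Mir503 (0.36), Mir337 with Mir433 (0.28) and Mir542 with Mir351 (0.27). In the same 40 pairs, 12 (30%) were closer in level, among them Mir181d with Mir181c and Mir93 with Mir106b. Adjacent genes at these levels could be far apart, as in Mir143 with Mir145a, whose log2 ratio had a size of 6.26.

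**Figure D4:**
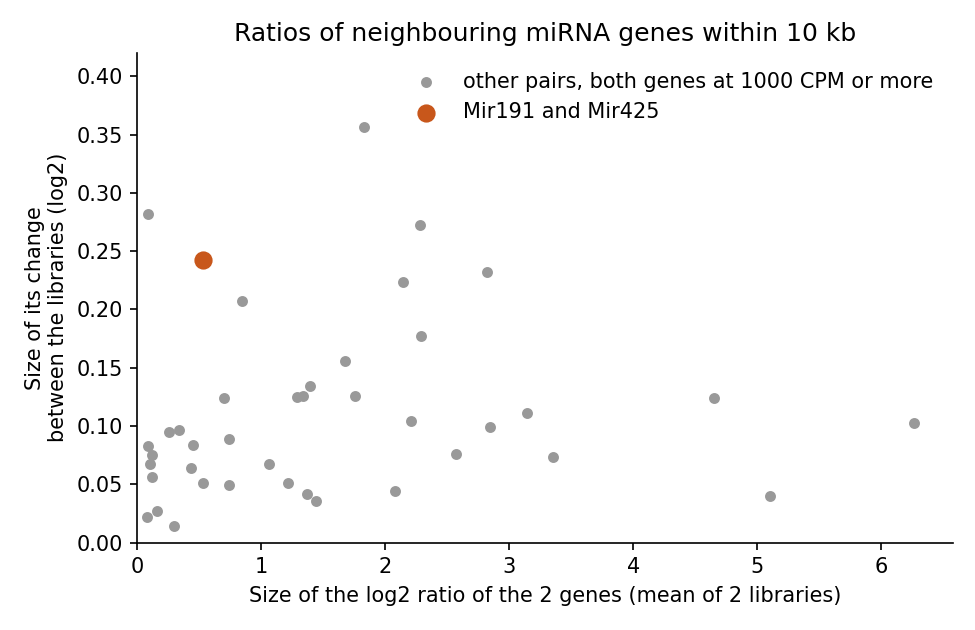
Each point is a pair of same-strand microRNA genes within 10 kb, both at 1000 CPM or more; the horizontal axis is the size of their log2 ratio (mean of 2 libraries) and the vertical axis the size of the change in that ratio between the libraries. The cluster lies at 0.53 and 0.24, with 3 of 40 other pairs above it.

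The level of each member was compared between the libraries as replicate 1 over replicate 2. For Mir191 the ratio was 0.910 (exact interval 0.881 to 0.941) and for Mir425 it was 1.08 (1.03 to 1.12). Scaled to all mapped reads, multimapping reads included, the ratio was 0.828 for Mir191, and for Mir425 it was 0.980, on the other side of equality. Neither member was past 1.5-fold on CPM + 1, against 45 of 420 detected genes, or 10.7%, in either direction. Of the 56 other genes whose mean level was within 2-fold of a member's, 0 were past it either, so the members do not stand out at their level. Past that fold, 7.14% of detected genes were higher in replicate 1 and 3.57% were lower there. The intervals of both members excluded equality, against 34.5% of detected genes, and against 33 of 56 other genes (58.9%) whose mean level was within 2-fold of a member's. Among the 57 other genes of like level, which here include the other member, 11 had a larger fold than Mir191 and 17 a larger fold than Mir425. Mir191 is 1 of those 17.

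**Figure D5:**
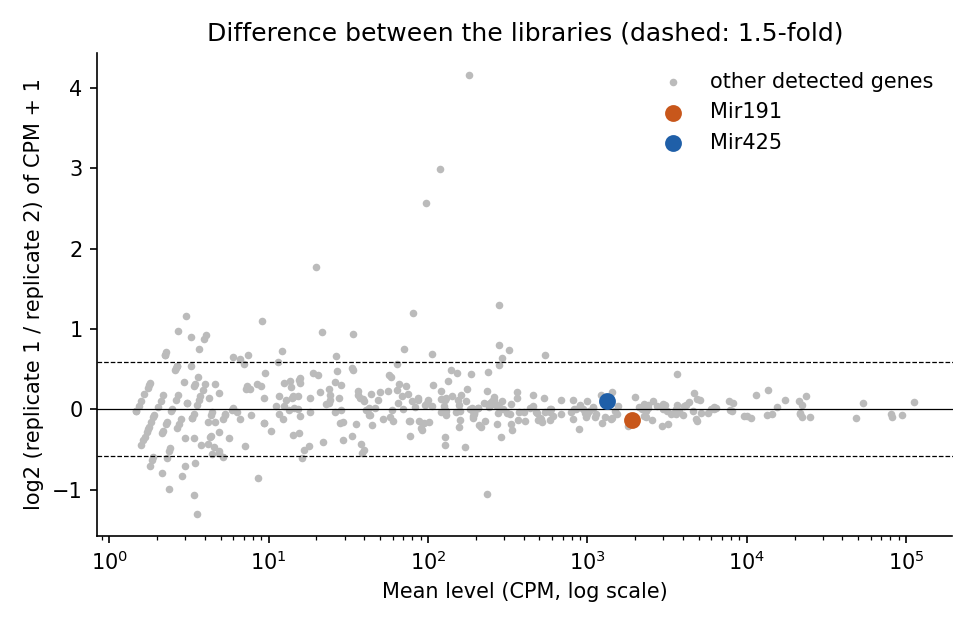
Log2 ratio of replicate 1 to replicate 2 (of CPM + 1) against mean level (CPM, log scale) for the 420 detected genes, with dashed lines at 1.5-fold. Mir191 lies just below 0 and Mir425 just above it, both inside the lines; 45 genes lie outside them.

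Markers of some other cell types differed more between the libraries than the members did. Over all detected genes, 7.14% were past 1.5-fold and higher in replicate 1, and 3.57% were past it and lower there. All 7 epithelial genes listed (Mir200a, Mir200b, Mir200c, Mir141, Mir429, Mir203 and Mir205) were detected, with 3 past 1.5-fold, all higher in replicate 1. The 7 summed to 2144 CPM in replicate 1 and 1488 CPM in replicate 2. The hepatocyte gene Mir122 had 395 and 160 CPM in replicates 1 and 2, and the endocrine and gut gene Mir375 at 112 and 48.6 CPM. Of the 3 cardiac genes 0 were past 1.5-fold, with ratios of replicate 1 to replicate 2 of 0.933 for Mir208a, 0.925 for Mir208b and 0.863 for Mir499. The smooth muscle genes Mir143 and Mir145a had ratios of 0.951 and 0.886. Mir499 and Mir145a thus also differed more between the libraries than either member. The endothelial Mir126a had a ratio of 0.939, and the red cell genes Mir451a and Mir144 had 1.01 and 1.04. Of 3 leukocyte genes counted on their own strand, Mir223 had a ratio of 1.17 and Mir155 of 0.994, and Mir150 was past 1.5-fold with 12.7 and 19.8 CPM in the 2 replicates. Mir142, read on the strand opposite Mir142b, had 2417 and 2074 CPM, a ratio of 1.17. The part of these differences in the values of Mir191 and Mir425 was not tested.

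The members were also set within a list of 23 microRNA genes in wide use as reference genes, of which 22 have counts here, with Mir191 read on the strand opposite Gm24083. All 22 were detected, against 420 of all 1973 models. Past 1.5-fold between the libraries were 0 of the 22, against 10.7% of detected genes, and this difference was not tested. Their median log2 ratio of replicate 1 to replicate 2 was -0.03, beside 0.01 over all detected genes. By level Mir191 was the eighth and Mir425 the tenth, behind Mir30e at 24974 CPM, Mir23a at 21645 CPM, Mir151 at 6251 CPM and Mir93 at 6205 CPM, among others. By the smallest difference between the libraries Mir425 was in place 12 and Mir191 in place 13 of 22. Mir93, from the miR-106b-25 cluster, differed least among those just named, with 6229 and 6182 CPM in replicates 1 and 2. In the list 11 genes have their mature sequence at more than 1 locus by symbol, and their counts are uncertain; among the other 11, Mir425 was in place 7 and Mir191 in place 8.

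Mir489, which encodes the only arm sharing a seed with the cluster, lies in an intron of the calcitonin receptor gene Calcr on chromosome 6 (chr6:3721897-3722003). It had 10 counts in replicate 1, or 0.541 CPM (0.260 to 0.996 CPM), and 3 counts in replicate 2, or 1.49 CPM (0.307 to 4.35 CPM). Mir425 exceeded it 2547-fold in replicate 1 (interval 1385 to 5313) and 861-fold in replicate 2 (294 to 4179). Nearly all counts on genes that carry the miR-425-5p seed therefore came from Mir425, over both arms of each hairpin.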

How the data were processed

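Each library came with 1 table of raw read counts per microRNA gene model, deposited by the authors without normalization, on assembly mm10 with annotation M4, per the file headers in the notes that came with them. No source used here names the aligner or the counter. The 3 unlabelled count columns were taken as both strands, own strand and opposite strand; the last 2 add up to the first in all 1973 models. The 4 summary rows were left out: multimapping reads were 33.8% and 33.2% of mapped reads in replicates 1 and 2. By ID, 1894 models matched GENCODE M21 on the same build.

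CPM, ratios and exact intervals were computed in Python 3.11.15 with SciPy 1.17.1; scaling alternatives used edgeR 4.0.16 (TMM) and DESeq2 1.42.0 (size factors). With 1 group and 2 libraries there was no contrast and no p-value. The ratio intervals, the fold calls and the pair ratios were checked on simulated counts. Those counts held counting error only, so the check does not cover other spread between libraries or the remaining steps. Members and lists were chosen with earlier results of these data known. Genes were named by level next to the members, likeness, fixed lists, shared seed and opposite-strand counts of at least 1000; Mir335 and the pairs named were added after their values were seen.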

Additional observations from a re-analysis of the deposited data

How the results depend on the processing

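Of 62 alternative values, 46 moved by less than the spread or interval of the main value. Some of these could not have moved further. Both-strand counts equal the main counts at both loci, and a mean of 2 libraries always lies within the SD of either. No ratio of Mir191 to Mir425 changed direction, but none could. Scaling drops out of it, the pseudocounts are small beside these levels, and Mir191 was the higher in both libraries. Scaled to all mapped reads, Mir191 stood at 1048 CPM and Mir425 at 724 CPM, with ratios of replicate 1 to replicate 2 of 0.828 and 0.980. The number of genes past 1.5-fold was 26 with at least 10 counts in both libraries, 6 with at least 100 CPM, 107 with a count in either library, 11 at a fold of 2 and 18 with a pseudocount of 5 CPM, against 45. Neither member is past that fold under any of these. The filters also changed how many genes were compared, 194 at 100 CPM and 420 in the main count, so these counts are not shares of 1 set. The places were 75 for Mir191 and 84 for Mir425 with both-strand counts or with the larger strand for all genes. Leaving out 1 replicate gave places 68 to 69 for Mir191 and 76 to 80 for Mir425. Pairs closer in level than the cluster were 19.8% at 100 CPM or more and 30% at 1000 CPM or more. No paired analysis was possible because there is 1 group. Depth limits replicate 2, where a count of 0 allows up to 1.49 CPM, against 0.162 CPM in replicate 1.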

Other observations

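By M21 annotation, detected genes in exons of non-coding genes numbered 51, with a median of 172 CPM. The medians were 101 CPM for 28 genes in introns of non-coding genes, 11.1 CPM for 51 genes in exons of protein-coding genes, 43.0 CPM for 161 genes in introns of protein-coding genes and 131 CPM for 129 genes with no host on their strand. Mir191 and Mir425 were in places 12 and 13 of the 51. If the RefSeq span of Dalrd3 is used, both belong to a protein-coding gene, so the class of this cluster depends on the annotation.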
